A study of Mus musculus with 39 samples.

Results

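The RNAs described here are the 10 liver transcripts that store iron, sense it, take it up and send it out: Fth1, Ftl1, Slc40a1, Cp, Hamp, Tfrc, Tfr2, Hfe, Aco1 and Ireb2. They are listed by name, for their known roles and with no threshold on a measured value, although earlier results of these data were known when the list was made. All 10 had a row in both deposited tables, among the 13230 genes the tables share. They were followed through ATLAS-Seq, in which a tissue homogenate is spun through sucrose without detergent, so that membranes, organelles and RNA-protein particles stay intact, and the RNA of each density fraction is sequenced. The homogenates came from livers of wild-type FVB female mice and had been cleared of nuclei, and no treatment, genotype or age contrast exists in the series. Gradient 1 gave 17 libraries, of fractions 4 to 19 and 21, and gradient 2 gave 22 libraries, of fractions 3 to 24, with higher numbers for denser sucrose. Each fraction of a gradient was sequenced as 1 library, so the replicates of a fraction were the 2 biological gradients, and the age of the mice was not given in the sources used here.

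Iron is scarce as a free ion in cells because it is held in ferritin, a hollow shell of heavy (Fth1) and light (Ftl1) chains. It leaves cells through ferroportin (Slc40a1), the known iron exporter, enters them on transferrin through the transferrin receptor (Tfrc), and is rationed in the body by hepcidin (Hamp), a hormone that hepatocytes secrete and that removes ferroportin from the cell surface. Inside the cell, the iron regulatory proteins (Aco1 and Ireb2) bind a hairpin called the iron-responsive element (IRE) when iron is low. A hairpin in the 5′ untranslated region (UTR) lets them block translation, and hairpins in the 3′ UTR of Tfrc let them protect the RNA from decay. The comparison asked of these RNAs was whether those with a 5′ IRE (Fth1, Ftl1 and Slc40a1) lay elsewhere in the gradient than the other 7.

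The hairpins themselves were read from the GENCODE transcripts of GRCm38, the assembly that is also called mm10. The search took an unpaired C, 5 bases, the 6-base loop CAGTGN and 5 bases that pair with the first 5 (G with T allowed), on the sense strand of the transcript alone. The 3 elements that define the 5′ class are shown first, because the class rests on them. Each is 29 bases long, with the unpaired C and the loop in capitals.
Fth1: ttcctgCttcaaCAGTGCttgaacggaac
Ftl1: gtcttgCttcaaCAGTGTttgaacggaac
Slc40a1: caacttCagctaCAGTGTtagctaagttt

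All 3 lay in the 5′ UTR, in exon 1 of their transcripts. The Fth1 element was at chr19:9982732-9982760 on the plus strand, the Ftl1 element at chr7:45459779-45459807 on the minus strand and the Slc40a1 element at chr1:45925465-45925493 on the minus strand. The unpaired C stood 132, 170 and 224 bases before the start codon, in that order. The ferritin elements were identical at 26 of 29 bases, and each shared 13 of 29 with that of Slc40a1. Of 20496 genes searched with 1 transcript each, 17 (0.083%) held such a match in the 5′ UTR and 99 (0.483%) held one in the 3′ UTR. Only 1 gene held more than 1 match in its 3′ UTR, and that gene was Tfrc, with 4, all in exon 19 on chromosome 16. They are shown because they set Tfrc apart from the other members, and they shared between 18 and 25 of 29 bases with each other.
Tfrc element 1: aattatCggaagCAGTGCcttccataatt
Tfrc element 2: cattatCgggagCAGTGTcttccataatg
Tfrc element 3: ctatatCggagaCAGTGAtctccatatgt
Tfrc element 4: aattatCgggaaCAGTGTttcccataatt

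These stood at chr16:32631219-32631247, chr16:32631598-32631626, chr16:32631663-32631691 and chr16:32631710-32631738, on the plus strand. No match was found in the transcripts of Aco1, Cp, Hamp, Hfe, Ireb2 or Tfr2, which says only that these letters are not there.

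Values are TPM, the deposited level per gene scaled for transcript length and library total, so levels can be compared between genes. The authors put an equal mass of RNA into each library, so a TPM value is a share of what was sequenced from that fraction and not an amount, and the read depth behind it is unknown. Totals ran from 998099 to 999202 TPM over the 39 libraries. To compare regions of the gradient, log2(TPM + 1) of each gradient was summarized as its mean in a light zone of fractions 4 to 7, a middle zone of 10 to 13 and a dense zone of 16 to 19. Zones were compared with limma over the 11754 genes whose mean TPM in these libraries was 1 or more. A gene was called at a Benjamini-Hochberg adjusted p under 0.05, and all 10 members passed the filter on low values. Tfrc passed it through the light zone alone, its means in the middle and dense zones being below 1 TPM. The background of calls was high, since 61.9% of genes were called between the dense and the light zone, of which 36.0% were higher in the dense zone. With quantile normalization that share was 50.6%, and the median change of all genes moved from −0.43 to −0.05. Between the dense and the middle zone the share higher went from 17.5% to 43.0%, and the median from −0.28 to 0.03. Fold changes on the log2(TPM + 1) scale understate the change of low genes such as Tfrc.

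In order of mean TPM over the 17 fractions that both gradients share, the light ferritin chain stood first. Ftl1 averaged 19673 TPM in gradient 1 and 11080 in gradient 2, Hamp 6009 and 8000, and Fth1 2454 and 2459. Far below them came Aco1 (217 and 203), Slc40a1 (77.6 and 77.5), Ireb2 (61.7 and 70.2), Cp (59.8 and 64.6), Tfr2 (46.6 and 45.6), Hfe (10.1 and 24.7) and Tfrc (2.25 and 1.72). Neighbors in this order did not overlap between gradients, except Ireb2 and Cp, whose ranges did. The ferritin pair alone held between 0.983% (fraction 10) and 5.01% (fraction 21) of all TPM in gradient 1, and between 0.637% (fraction 10) and 4.66% (fraction 3) in gradient 2.

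**Figure D1:**
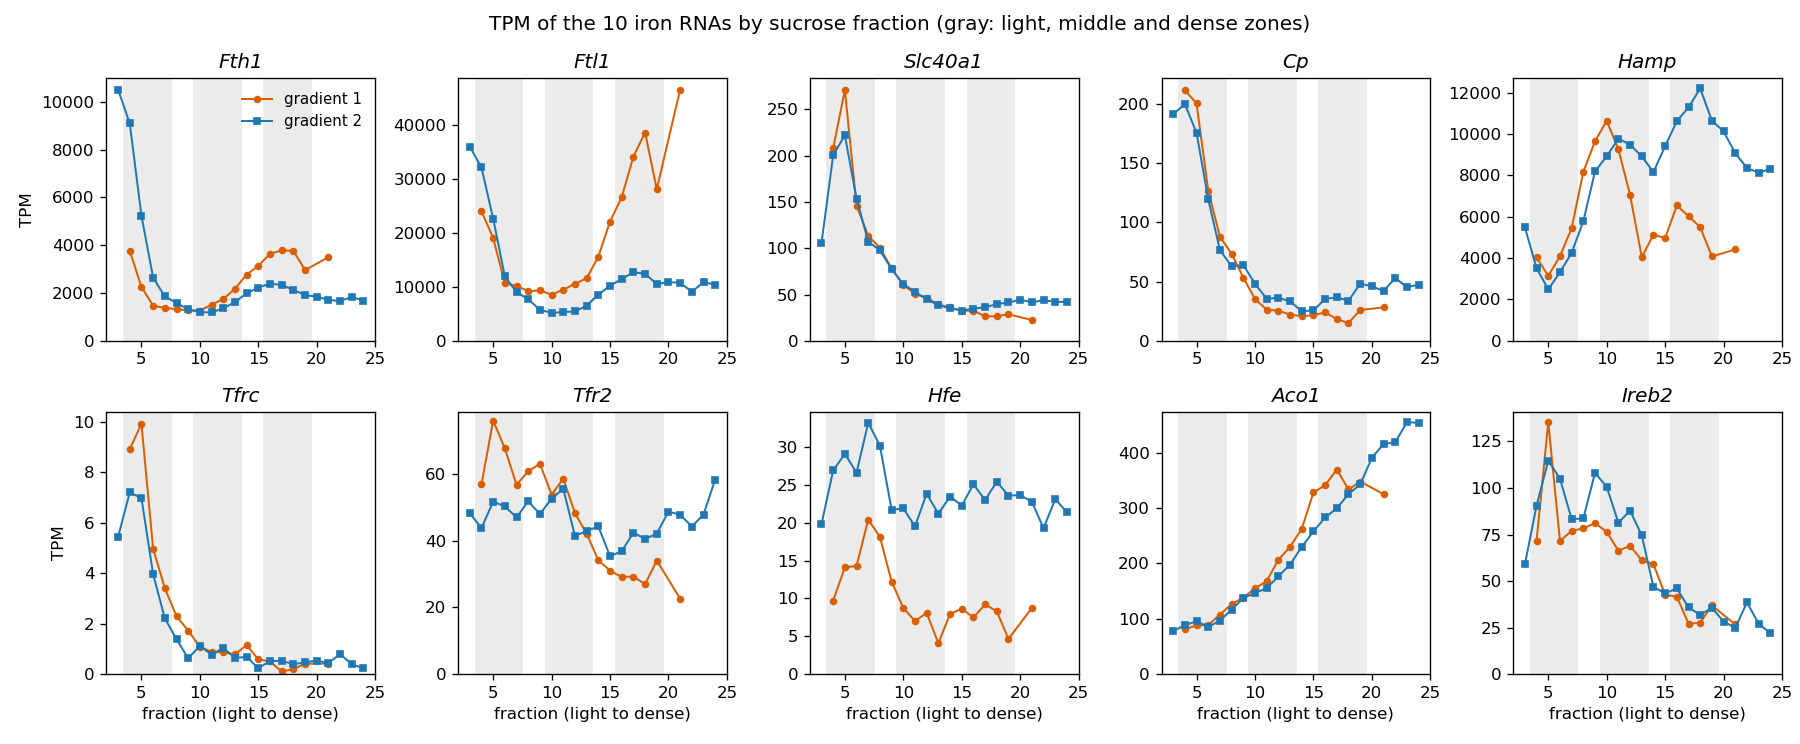
TPM of each of the 10 RNAs (vertical axis, from 0) against sucrose fraction (horizontal axis, light to dense) in gradient 1 (circles) and gradient 2 (squares), 1 library per point, with the light, middle and dense zones in gray. Fth1 and Ftl1 had their lowest values at fraction 10 or 11 in both gradients, Slc40a1, Cp and Tfrc had their highest at fractions 4 or 5, and Aco1 climbed along the gradient.

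Ferritin RNAs were at their lowest in the middle of both gradients and high at an end, but the end differed between the gradients. In gradient 1, Fth1 stood at 3764 TPM in fraction 4, 1261 in fraction 10 and 3786 in fraction 17. On the light side only fraction 4 was as high as the dense side, since fraction 5 read 2253 TPM and fraction 7 read 1375. In gradient 2, Fth1 stood at 10519 TPM in fraction 3, 1191 in fraction 11 and 2393 in fraction 16, so that the lightest fractions were far above the rest. Ftl1 had the same form, and its dense side was the higher in gradient 1. In that gradient it read 24044 TPM in fraction 4, 8559 in fraction 10 and 46578 in fraction 21. In gradient 2 it read 35995 TPM in fraction 3, 5166 in fraction 10 and 12706 in fraction 17.

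Zone means put numbers on the disagreement. Fth1 averaged 2215 TPM in the light, 1674 in the middle and 3537 in the dense zone of gradient 1, against 4707, 1341 and 2195 in gradient 2. The light and dense values of the 2 gradients therefore overlapped, and the middle zone was below both of them in each. From light to dense, the log2 change of Fth1 was −0.02 ± 0.39 (SE, n = 2 gradients, limma adjusted p = 0.963), made of 0.79 in gradient 1 and −0.84 in gradient 2. Ftl1, at 15993, 10047 and 31868 TPM in gradient 1 and 18941, 5616 and 11780 in gradient 2, gave 0.28 ± 0.54 (adjusted p = 0.666), made of 1.08 and −0.51. Neither ferritin RNA was called between these zones, and neither change had the same sign in both gradients.

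From the middle to the dense zone, both gradients had the same sign for both chains. The ratio of dense to middle TPM was 2.11 and 1.64 for Fth1 and 3.17 and 2.10 for Ftl1, in gradients 1 and 2. The log2 changes were 0.91 ± 0.39 for Fth1 (adjusted p = 0.145) and 1.36 ± 0.54 for Ftl1 (adjusted p = 0.115), short of the threshold by limma. They stood at percentiles 96.3 and 99.6 of the changes of all genes tested, whose median was −0.28. With the gradient as a replicate block, Ftl1 passed (adjusted p = 0.033) and Fth1 did not (0.111). From light to middle, changes were −0.93 ± 0.39 (adjusted p = 0.0986) for Fth1 and −1.08 ± 0.54 (adjusted p = 0.147) for Ftl1.

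The chains kept close to each other while the balance between them shifted. Over the 17 shared fractions their TPM had a Pearson R of 0.873 (Spearman 0.934) in gradient 1 and 0.974 (0.924) in gradient 2. Fractions of 1 gradient share their homogenate, and neighbors are alike, so these values are descriptions. Ftl1 over Fth1 was lowest at 5.34 (fraction 13) and highest at 13.3 (fraction 21) in gradient 1. In gradient 2 it was lowest at 3.42 (fraction 3) and highest at 6.30 (fraction 21). Averaged over the fractions of a zone, the ratio was higher in the dense than in the light zone in each gradient, at 9.02 against 7.38 and at 5.39 against 4.31. No row of the tables besides these carries a symbol that begins with Fth1 or Ftl1, so reads from near-identical ferritin copies, if any were assigned here, could not be told apart.

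**Figure D2:**
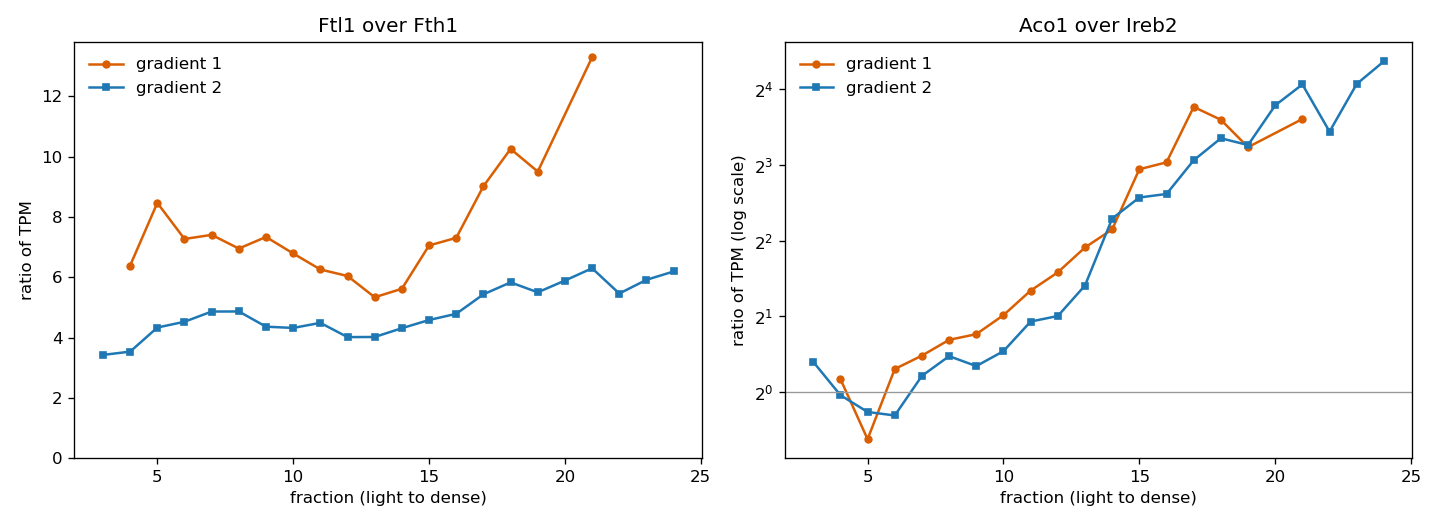
Ratio of TPM of Ftl1 to Fth1 (left, linear axis from 0) and of Aco1 to Ireb2 (right, log scale) against sucrose fraction in gradients 1 (circles) and 2 (squares). Ftl1 over Fth1 was highest at fraction 21 in both gradients (13.3 and 6.30). Aco1 over Ireb2 went from below 1 near the light end to 10.8 and 8.58, as means of the fraction ratios in the dense zone.

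Ferroportin RNA, the third with a 5′ IRE, was unlike the ferritins in gradient 1 and in part like them in gradient 2. Over the 17 shared fractions, its Pearson R with Fth1 and Ftl1 was −0.207 and −0.265 in gradient 1 (Spearman −0.591 and −0.647). In gradient 2 the R was 0.7543 and 0.7325 (Spearman 0.025 and 0.096). Slc40a1 was highest at fraction 5 in both gradients, at 271 and 222 TPM, and from there sank to 22.5 TPM in fraction 21 of gradient 1 and 32.7 TPM in fraction 15 of gradient 2. Its zone means were 185, 49.2 and 28.5 TPM in gradient 1 and 171, 49.3 and 38.0 in gradient 2, with no overlap between zones. Slc40a1 fell by 2.33 ± 0.19 on the log2 scale from light to dense (adjusted p = 0.000405), which was 6.47-fold and 4.49-fold lower TPM in the 2 gradients. It fell by 1.78 ± 0.19 from light to middle (adjusted p = 0.00169). From middle to dense the change was −0.55 (adjusted p = 0.0779), and it passed with the replicate block (0.0273). Ferroportin is made by hepatocytes and by Kupffer cells, the macrophages of the liver, and the summed TPM of 8 Kupffer markers also differed between zones, at 202 and 193 in the light, 79.9 and 88.4 in the middle and 83.2 and 104 in the dense zone. The summed TPM of 6 hepatocyte markers was also highest in the light zone, at 45708 and 31135, against 8116 and 12346 in the middle and 9252 and 17942 in the dense zone. The part of either set in the result was not tested. The zones of a gradient were parts of 1 homogenate, and whether the RNA of each cell type was shared equally among them was not tested. Between the gradients, fewer cells of a type and less RNA per cell cannot be told apart in bulk samples.

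Ceruloplasmin, the secreted copper oxidase that readies exported iron for transferrin, followed ferroportin. Cp was highest at fraction 4, at 212 TPM in gradient 1 and 200 in gradient 2, and lowest at 14.9 (fraction 18) and 24.9 (fraction 14). Zone means were 157, 27.3 and 20.8 TPM in gradient 1 and 143, 38.3 and 38.5 in gradient 2, so the light zone stood clear of the other zones, which overlapped. Cp fell by 2.29 ± 0.33 from light to dense (adjusted p = 0.00206) and by 2.10 ± 0.33 from light to middle (adjusted p = 0.00464). The Pearson R of Slc40a1 with Cp over the 17 shared fractions was 0.976 in gradient 1 and 0.975 in gradient 2 (Spearman 0.831 and 0.902). This likeness was not particular to the pair. Tfrc had an R of 0.986 and 0.969 with Slc40a1 and of 0.990 and 0.982 with Cp.

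Hepcidin RNA had the opposite slope at the light end. Hamp was lowest at fraction 5 in both gradients, at 3139 and 2490 TPM, where Slc40a1 was highest. Its highest value was 10638 TPM at fraction 10 in gradient 1 and 12199 TPM at fraction 18 in gradient 2. Gradient 1 dropped again to 4043 TPM at fraction 13, while gradient 2 stood at 8913 there. Zone means were 4176, 7746 and 5533 TPM in gradient 1 and 3389, 9272 and 11186 in gradient 2, so that light was below middle and dense in both gradients. The log2 changes were 1.15 ± 0.39 from light to middle (adjusted p = 0.0528) and 1.08 ± 0.39 from light to dense (adjusted p = 0.0524). Both passed with the replicate block (0.0244 and 0.0268). From middle to dense the gradients had opposite signs, at −0.42 and 0.27. The ratio of Hamp to Slc40a1, the hormone over the exporter it acts on, was averaged over the fractions of each zone. It went from 26.7 and 22.5 in the light zone to 195 and 295 in the dense zone.

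Hamp2, a close copy of hepcidin, averaged 83.5 and 87.8 TPM, and how reads were split between the copies is uncertain. Its log2 change from light to dense was 0.98 (adjusted p = 0.013). Hamp over Hamp2 ranged from 57.6 to 118 in gradient 1 and from 61.9 to 122 in gradient 2.

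The receptors differed among themselves. Tfrc, the widely used transferrin receptor, was the rarest member. It peaked at 9.92 TPM in fraction 5 of gradient 1 and 7.20 TPM in fraction 4 of gradient 2, and its lowest values were 0.105 (fraction 17) and 0.229 (fraction 24). Zone means were 6.80, 0.901 and 0.302 TPM in gradient 1 and 5.09, 0.891 and 0.474 in gradient 2, with no overlap between zones. Light TPM was 22.5-fold and 10.7-fold above dense TPM. As Tfrc passed the filter on low values through the light zone, where it is high, a difference from that zone was bound to appear, and its size is given as a description. On the log2(TPM + 1) scale Tfrc fell by 2.22 ± 0.21 from light to dense (adjusted p = 0.000582) and by 1.77 ± 0.21 from light to middle (adjusted p = 0.00212). With a pseudocount of 0.1 the change from light to dense was −3.57. The number of reads behind values under 1 TPM is unknown.

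Tfr2, the hepatocyte receptor that senses transferrin-bound iron, had a flat profile by comparison. It ranged from 22.6 (fraction 21) to 76.0 TPM (fraction 5) in gradient 1 and from 35.3 (fraction 15) to 58.4 TPM (fraction 24) in gradient 2. Zone means were 64.4, 50.7 and 29.8 TPM in gradient 1 and 48.2, 48.1 and 40.5 in gradient 2. The dense zone was the lowest in each gradient, and the light and middle zones of gradient 2 were level. Tfr2 fell by 0.66 ± 0.23 from light to dense (adjusted p = 0.0458), near the median of all genes (−0.43), and lost the call with quantile normalization (adjusted p = 0.109). It also lost the call in 5 of 6 fits that left out 1 zone of 1 gradient, with adjusted p from 0.0599 (without the light zone of gradient 2) to 0.219 (without the light zone of gradient 1), and kept it only without the dense zone of gradient 2. The change was −1.08 in gradient 1 and −0.25 in gradient 2.

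Hfe, the membrane partner of the transferrin receptors, was the least repeatable in level. It averaged 10.1 TPM in gradient 1 and 24.7 in gradient 2, and its profile peaked at fraction 7 in both, at 20.4 and 33.2 TPM. Zone means were 14.6, 6.97 and 7.40 TPM in gradient 1 and 29.0, 21.6 and 24.3 in gradient 2. The light zone was the highest within each gradient, and the zones overlapped between gradients. The log2 change from light to dense was −0.56 ± 0.74 (adjusted p = 0.529), and that from light to middle −0.69 ± 0.74 (adjusted p = 0.473). With the replicate block, which removes the difference in level, both passed (0.0352 and 0.0208).

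The RNAs of the iron regulatory proteins ran against each other. Aco1, the cytosolic aconitase that binds IREs once its iron-sulfur cluster is lost, climbed from 80.8 TPM (fraction 4) to 369 TPM (fraction 17) in gradient 1 and from 77.8 TPM (fraction 3) to 455 TPM (fraction 23) in gradient 2. Zone means were 91.2, 190 and 348 TPM in gradient 1 and 91.3, 169 and 312 in gradient 2, with no overlap between zones. Aco1 rose by 1.84 ± 0.15 from light to dense (adjusted p = 0.000434), by 0.96 ± 0.15 from light to middle (adjusted p = 0.005) and by 0.89 ± 0.15 from middle to dense (adjusted p = 0.0119). It was the only member called in all 3 comparisons without the replicate block.

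Ireb2, which is controlled by iron-dependent decay of its protein, was highest at fraction 5 in both gradients (135 and 115 TPM) and lowest at fraction 21 of gradient 1 (26.6 TPM) and fraction 24 of gradient 2 (21.9 TPM). Zone means were 88.9, 68.2 and 33.3 TPM in gradient 1 and 98.4, 86.1 and 37.3 in gradient 2. The dense zone was below the others, and the light zone of gradient 1 lay near the middle zone of gradient 2. Ireb2 fell by 1.37 ± 0.19 from light to dense (adjusted p = 0.00175) and by 1.11 ± 0.19 from middle to dense (adjusted p = 0.0114), whereas the change from light to middle was −0.26 (adjusted p = 0.298). Averaged over the fractions of a zone, Aco1 over Ireb2 was 1.10 and 0.944 in the light zone, 2.83 and 2.01 in the middle zone and 10.8 and 8.58 in the dense zone. Their Pearson R over 17 fractions was −0.849 and −0.924 (Spearman −0.873 and −0.907). Aco1 also had a negative R in both gradients with Tfr2 (−0.943 and −0.520), Slc40a1 (−0.779 and −0.698) and Cp (−0.733 and −0.599). The same held for Tfrc (−0.723 and −0.618) and Hfe (−0.621 and −0.424). With Fth1, Ftl1 and Hamp the sign differed between gradients.

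**Figure D3:**
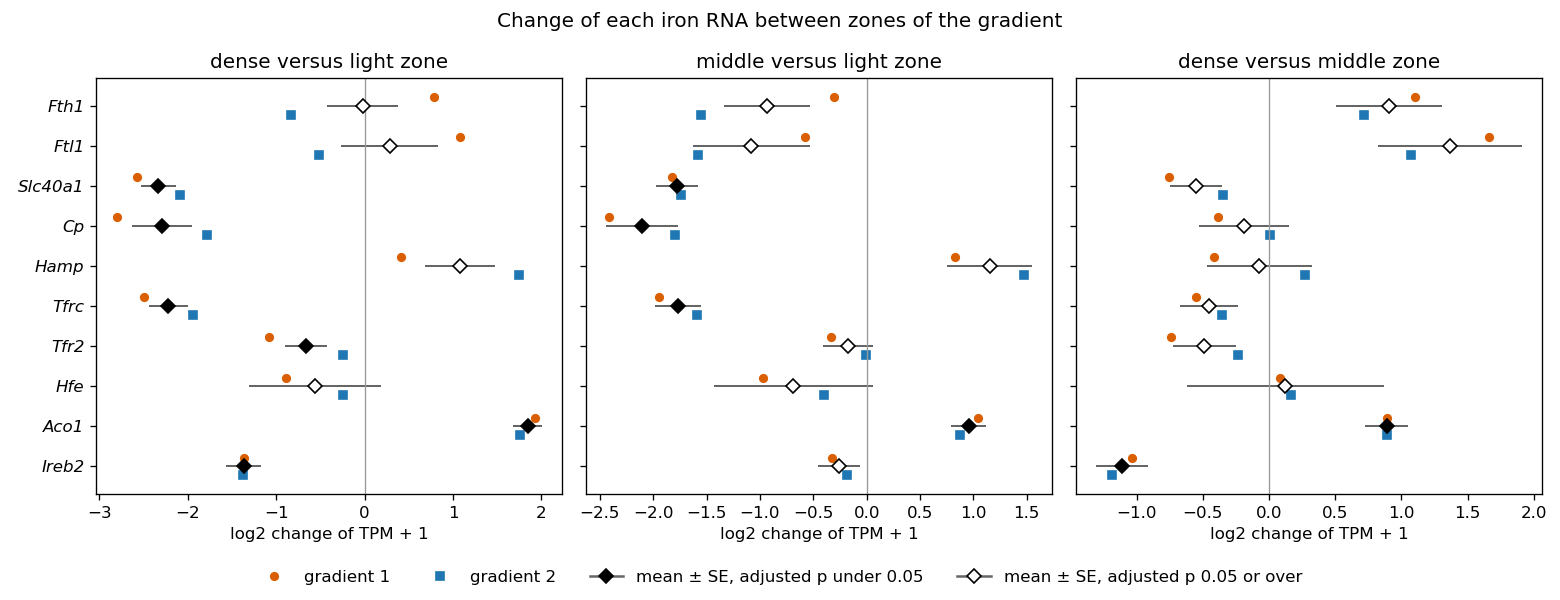
Log2 change of TPM + 1 (horizontal axis) of each of the 10 RNAs between zones, with both gradients (circles and squares) and the mean ± SE of limma (diamonds, filled where the adjusted p was under 0.05). Slc40a1, Cp and Tfrc lay left of 0 and Aco1 right of 0 in both gradients from light to dense, and the gradients fell on opposite sides of 0 for Fth1 and Ftl1.

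Counted together, 6 of 10 members were called between the dense and the light zone, beside 61.9% of all genes. Aco1 was higher in the dense zone, where 22.3% of all genes were called higher, and Slc40a1, Tfrc, Tfr2, Cp and Ireb2 were lower, where 39.6% were. The members' share was thus near the background. Tfrc, which passed the filter on low values through the light zone alone, is in these counts. Without it, a count added after the data had been seen, 5 of 9 members were called between dense and light (1 higher and 4 lower), 3 of 9 between middle and light and 2 of 9 between dense and middle. The median change from light to dense was −0.61 over the 10 members, −0.56 over these 9 and −0.43 over all genes. With the replicate block 8 members were called, Hamp being added among the higher and Hfe among the lower, but that fit also called 80.6% of all genes (30.5% higher and 50.0% lower). Between the middle and the light zone 4 members were called, 1 higher and 3 lower, beside 47.5% of all genes (23.5% higher and 24.1% lower), with medians of −0.81 (−0.69 without Tfrc) and 0.05. The block called 6 members there, beside 72.1% of all genes (37.2% higher and 35.0% lower). Between the dense and the middle zone 2 members were called, Aco1 higher and Ireb2 lower, beside 27.3% of all genes (4.79% higher and 22.5% lower), with medians of −0.13 and −0.28. The block called 4 members there, beside 53.4% of all genes (14.1% higher and 39.3% lower). The number of members with the same sign in both gradients was 8, 10 and 8 in these comparisons. Without the middle zone of either gradient, no member was called between dense and middle by limma (0 in each fit, with 3 and 2 members at an unadjusted p under 0.05), and Aco1 then had adjusted p = 0.0708 or 0.0913 and Ireb2 0.0577 or 0.0795. Without the dense zone of gradient 2, 4 members were called.

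The 3 RNAs with a 5′ IRE did not sit together in the gradient, although in gradient 2 all 3 were highest in fractions 3 to 5. From light to dense, their mean log2 change was −0.24 in gradient 1 and −1.15 in gradient 2, against −0.90 and −0.30 for the other 7. The class difference was 0.66 in gradient 1 and −0.85 in gradient 2, or −0.09 ± 1.07 (SD, n = 2), so its sign depended on the gradient and its size was under the spread between gradients. Without Tfrc among the others, which passed the filter on low values through the light zone alone, its mean was −0.36. No test was made over members, which are not replicates of a class.

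Other zone pairs gave class differences of the same sign in both gradients. From light to middle the class difference was −0.32 and −1.39, and from middle to dense it was 0.98 and 0.54. The members behind them differed. From middle to dense, Fth1 (1.10 and 0.72) and Ftl1 (1.66 and 1.07) were above 0 while Slc40a1 was below it (−0.75 and −0.35). From light to middle, Slc40a1 was the lowest of the class in both gradients (−1.82 and −1.74), and in gradient 1 Fth1 (−0.31) and Ftl1 (−0.58) were not below the mean of the other 7 (−0.59). In the mean profiles, with each RNA divided by its own mean over the 17 shared fractions, the 5′ IRE class was below the others in both gradients at 7 fractions, above them in both at 1, and differed in sign at 9. The log2 ratio of the class means had its lowest value in fraction 10 of gradient 1 (−0.76) and in fraction 12 of gradient 2 (−0.75). At fraction 18 it was 0.95 in gradient 1 and −0.10 in gradient 2. These signs depended on how the members were averaged. With the mean of log2 profiles in place of the log2 of mean profiles, an alternative added after the data had been seen, the class was below the others in both gradients at 5 fractions, above them in both at 4 and differed in sign at 8, and at fraction 18 the values were 1.05 and 0.10.

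**Figure D4:**
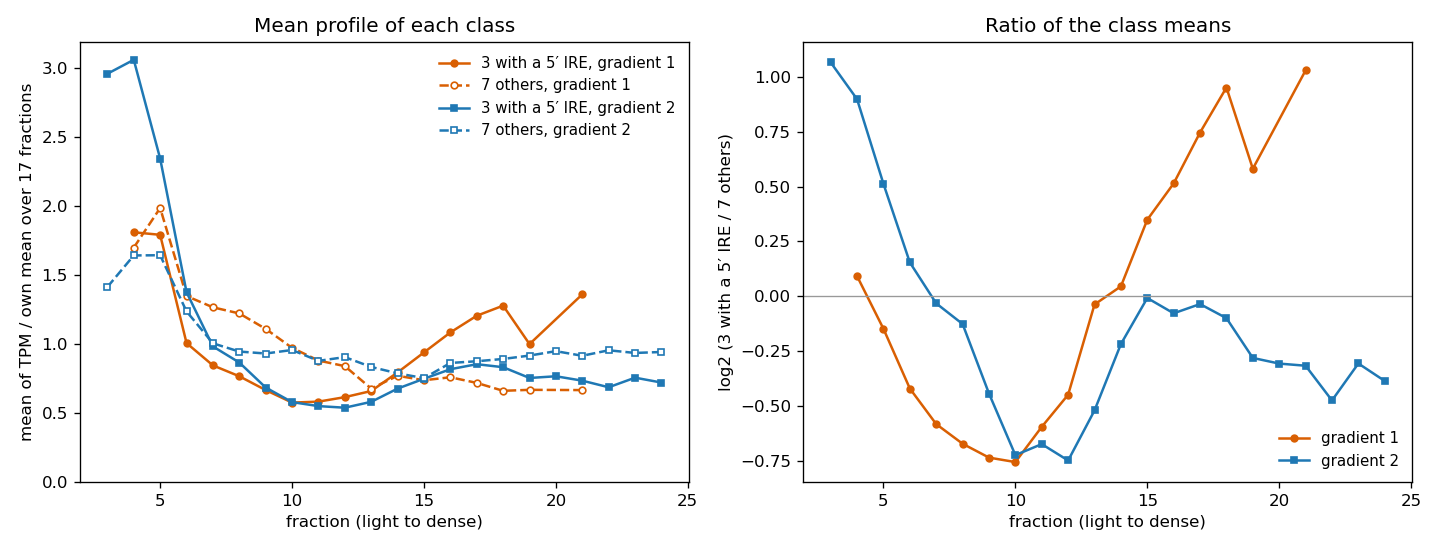
Left, mean profile (TPM over its own mean in 17 fractions) of the 3 RNAs with a 5′ IRE (solid) and of the other 7 (dashed, open) by fraction in gradients 1 (circles) and 2 (squares). Right, log2 ratio of the class means, which was lowest at −0.76 (fraction 10, gradient 1) and −0.75 (fraction 12, gradient 2) and parted at the ends, reaching 1.03 at fraction 21 of gradient 1 and 1.07 at fraction 3 of gradient 2.

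The members also differ in where their proteins are made. Fth1, Ftl1, Aco1 and Ireb2 encode cytosolic proteins, and the other 6 encode membrane or secreted proteins that are made at the endoplasmic reticulum. From light to dense, the cytosolic RNAs with a 5′ IRE changed by a mean of 0.93 and −0.67 in the gradients, while Slc40a1, the membrane protein RNA of that class, changed by −2.58 and −2.09. Compared only with the other 5 membrane or secreted members (−1.37 and −0.49), Slc40a1 gave a difference of −1.40 ± 0.27 (SD, n = 2). That class is 1 gene, and the 5 others ran from −2.29 (Cp) and −2.22 (Tfrc), close to the −2.33 of Slc40a1, through Tfr2 (−0.66) and Hfe (−0.56) to 1.08 (Hamp). These groups are small, and within the cytosolic RNAs without a 5′ IRE the members ran from −1.37 (Ireb2) to 1.84 (Aco1).

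The center of sedimentation, the mean fraction number weighted by TPM over the 17 shared fractions, put the members in order from light to dense. The median center of 11371 genes was 11.3 in both gradients. Tfrc lay lightest, at 7.03 in gradient 1 and 7.38 in gradient 2, followed by Cp (8.06 and 9.18), Slc40a1 (8.38 and 8.98) and Ireb2 (10.2 and 10.2). Tfr2 (10.5 and 11.7) and Hfe (10.7 and 11.7) lay near the median of all genes. Fth1 (13.2 and 10.2), Ftl1 (14.1 and 11.0) and Hamp (11.9 and 13.6) spread widely between gradients, and Aco1 lay densest at 14.3 and 14.5. Cp and Slc40a1 overlapped between gradients, and so did Tfr2 and Hfe. The ranges of Fth1 and Ftl1 overlapped with each other and with those of Tfr2, Hfe and Hamp. Tfrc was below and Aco1 above all others in both gradients. The class difference in center, as a number of fractions, was 1.50 in gradient 1 and −1.10 in gradient 2, with a mean of 0.20 ± 1.84 (SD, n = 2). With log2(TPM + 1) as weights it had 1 sign, at 0.58 and 0.24 (0.41 ± 0.24, SD), and among membrane or secreted proteins, where the class is Slc40a1 alone, it was −1.26 and −1.75 (−1.51 ± 0.34, SD). The sign of its mean was not stable. With TPM as weights the mean was −0.40 without Tfrc, −0.16 for cytosolic proteins only and −0.11 with all 22 fractions of gradient 2.

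Some members repeated closely between the gradients and others did not. The Pearson R between gradients over 17 fractions was 0.989 for Slc40a1 (Spearman 0.841), 0.989 for Tfrc (0.880), 0.991 for Cp (0.902), 0.939 for Aco1 (0.944) and 0.888 for Ireb2 (0.924). It was 0.826 for Hfe (0.593), 0.703 for Tfr2 (0.694), 0.402 for Fth1 (0.640), 0.345 for Ftl1 (0.743) and 0.302 for Hamp (0.355). The median of all genes was 0.904, and the quartiles were 0.764 and 0.959. By Pearson R, the members that repeated least were the 3 most abundant and also those with the shortest transcripts, whereas by Spearman the lowest were Hamp, Hfe and Fth1. Hamp has 410 bases in the annotation, Fth1 929 and Ftl1 968, and the other 7 run from 2973 (Tfr2) to 5770 (Ireb2). The part of abundance and length in the result was not tested.

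Fractions 22 to 24, sequenced in gradient 2 alone, extended the profiles at the dense end. Aco1 averaged 442 TPM there against 312 in the dense zone, the largest ratio among the members (1.42). Cp (1.26), Tfr2 (1.24) and Slc40a1 (1.12) were also above their dense zone. Hamp was at 0.739 of its dense zone, Ireb2 at 0.781, Fth1 at 0.787, Ftl1 at 0.859, Hfe at 0.876 and Tfrc at 0.989. These ratios have no replicate.

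Genes whose profile was most like that of a member were sought among 6729 genes whose mean TPM was 10 or more in each gradient, by the mean of the Pearson R in both gradients over 17 fractions. For Fth1 the closest gene was Ftl1 (0.923), followed by Rab14 (0.824) and Maf (0.815). Slc40a1 was most like Nrp1 (0.996), Ei24 (0.994) and Tram1 (0.993), and Tfrc most like Alcam (0.990), Chpt1 (0.990) and Lipa (0.989). Cp was closest to Mttp (0.995), Alb (0.995) and Cdh2 (0.993). Hamp was closest to Dad1 (0.929), Apoa2 (0.919) and Spcs1 (0.918), and Aco1 to Pygl (0.998), Acly (0.998) and Lonp2 (0.997). The highest values for Fth1 and Hamp were thus below those for Slc40a1, Tfrc, Cp and Aco1.

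Beyond the members, 41 other genes of iron biology were listed, of which 36 could be tested. Between the dense and the light zone, 25 of them were called, 2 higher and 23 lower, beside 61.9% of all genes (22.3% higher and 39.6% lower), with a median change of −1.32 against −0.43 over all genes. With the replicate block 31 were called, 5 higher and 26 lower, beside 80.6% of all genes (30.5% higher and 50.0% lower). Pcbp1, an RNA-binding protein that also hands iron to ferritin, rose by 2.51 ± 0.30 (adjusted p = 0.0011), from 111 and 97.2 TPM in the light to 748 and 472 in the dense zone, and Hmox1, which frees iron from heme, by 1.66 ± 0.42 (adjusted p = 0.0168). The Hmox1 call was lost without the light zone of gradient 2 (adjusted p = 0.11) or the dense zone of gradient 1 (0.0663).

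Slc25a37, Slc48a1, Slc39a14, Bmpr1a and Acvr2a fell most among the other iron genes. Slc25a37, the mitochondrial iron importer mitoferrin, fell by 2.85 (adjusted p = 0.00142) and Slc48a1, a heme transporter, by 2.74 (adjusted p = 0.000558). Slc39a14, which takes up iron that is not bound to transferrin, fell by 2.62 (adjusted p = 0.000707). Bmpr1a and Acvr2a, receptors of the BMP signal that turns on hepcidin, fell by 2.60 (adjusted p = 0.000677) and 2.35 (adjusted p = 0.000779). For the lists that follow, the same background of 39.6% called lower and 22.3% higher holds. Of 17 tested genes that control hepcidin, 11 were called lower and 0 higher by limma (0 also at an unadjusted p under 0.05, and 1 higher with the replicate block). Hamp itself lay higher in the dense than in the light zone in both gradients (0.41 and 1.75), but it was not called (limma adjusted p = 0.0524). A link between these changes and the control of Hamp was not tested. Of 10 tested genes of uptake, transport and release, 7 were lower and 1 higher, and of 6 genes of heme and hemoglobin iron, 4 were lower and 1 higher.

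**Figure D5:**
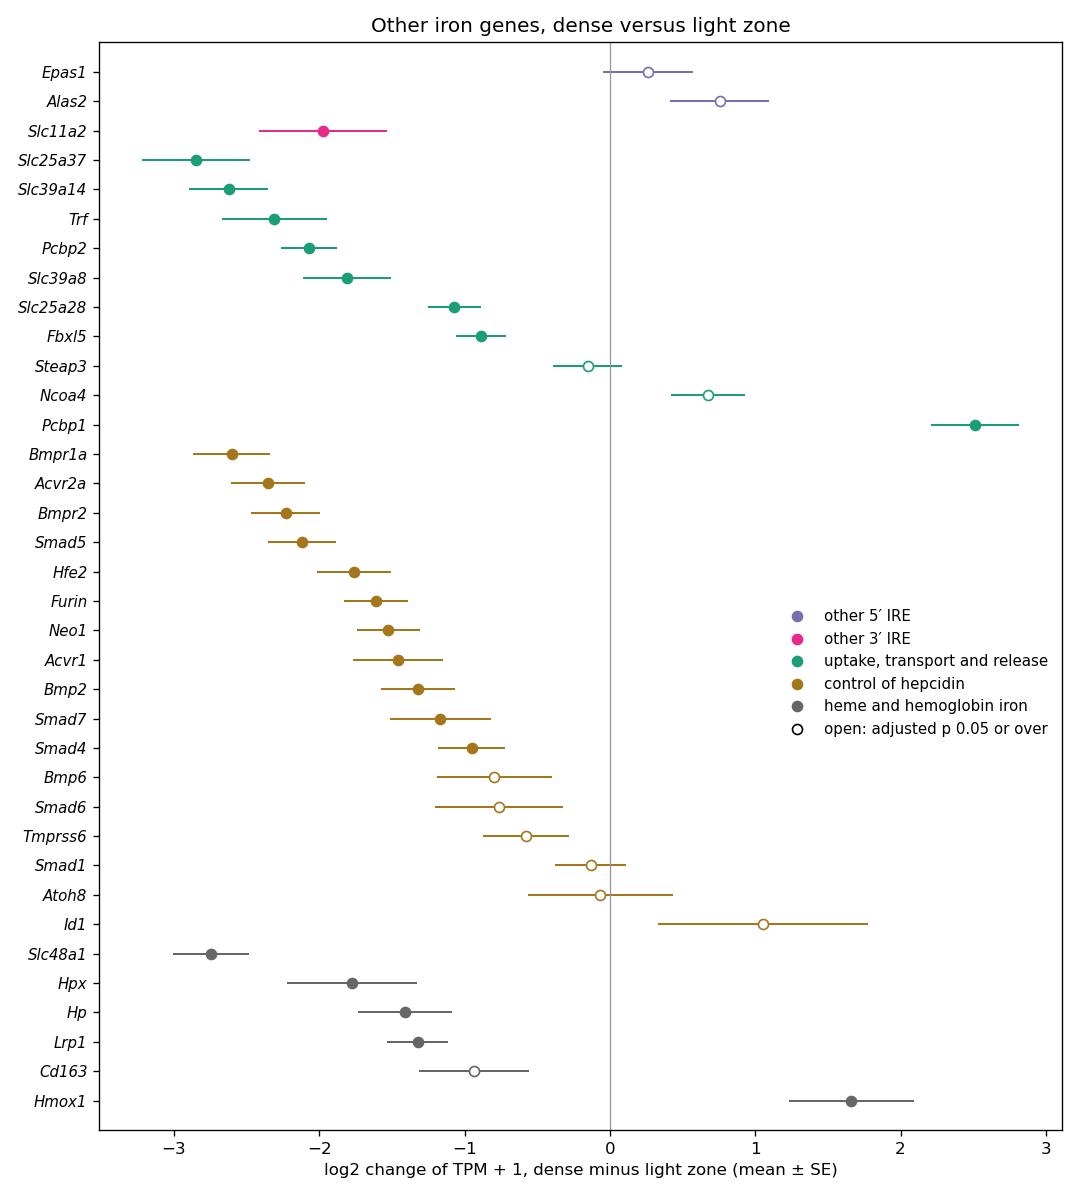
Log2 change of TPM + 1 from the light to the dense zone (mean ± SE of limma, 2 gradients) of the 36 tested iron genes other than the 10 members, colored by list and filled where the adjusted p was under 0.05. Pcbp1 and Hmox1 were called right of 0, and 23 genes were called left of 0. Hfe2 is the tables' symbol for Hjv, the hemojuvelin gene.

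Other RNAs listed with an IRE also differed among themselves. In the transcripts, the motif was found in the 5′ UTR of Alas2, the first enzyme of heme synthesis in red blood cell precursors, and not in Epas1, a hypoxia-regulated transcription factor, or Slc11a2, an iron importer whose 3′ element is known in part of its isoforms. The Alas2 element is shown for comparison with the ferritin and ferroportin hairpins above.
Alas2: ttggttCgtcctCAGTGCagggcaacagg

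The Alas2 element ran over the junction of exons 1 and 2. Changes from light to dense were 0.76 for Alas2 (adjusted p = 0.0962, and 0.00562 with the replicate block) and 0.26 for Epas1 (adjusted p = 0.479). Slc11a2 fell by 1.97 (adjusted p = 0.00979), and without the light zone of gradient 1 its adjusted p was 0.0669.

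Markers of other liver cells moved along the gradient as well. From light to dense, 5 of 8 Kupffer cell markers, 4 of 5 markers of sinusoidal endothelial cells, 3 of 4 of stellate cells and 2 of 3 of erythroid cells were called lower, beside 39.6% of all genes, and none of these lists had a marker called higher by limma (0 in each, also at an unadjusted p under 0.05). With the replicate block, 1 erythroid marker, Alas2, was called higher. Of 6 hepatocyte markers 3 were lower and 1 was higher. Every hepatocyte marker was present in both tables, and their summed TPM ran from 7122 to 55440 in gradient 1 and from 11410 to 36125 in gradient 2. The part of cell type in the profiles of the iron RNAs was not tested.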

How the data were processed

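RNA was measured in 39 libraries of sucrose fractions from 2 gradients of wild-type mouse liver. The authors made stranded libraries depleted of ribosomal RNA, demultiplexed reads with bcl2fastq 2.16.0.10 per the labels, pseudo-aligned them with Kallisto to RefSeq transcripts of mm10 and deposited TPM per gene for each gradient, with genes kept at TPM over 1 in at least 1 fraction. The version of Kallisto and the summing of transcripts to genes are not given in the sources used here. TPM holds no counts, so depth and counting error are unknown and no count test was used. The number of value columns matched to no sample was 0.

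From the deposited TPM, log2(TPM + 1) was averaged over 4 fractions per zone and gradient and fitted with limma 3.58.1 (R 4.3.3, trend in eBayes) over 3 zones and 2 gradients, with Benjamini-Hochberg adjustment over 11754 genes. The fit was tested on simulated data in which the zones of a gradient varied independently, unlike the zones here. An exact permutation test of 2 against 2 gradients cannot go below p = 0.333 and was not used. Zones of a gradient share a homogenate, so gradient numbers pair them. Deviations of paired zones correlated over genes at 0.665 (light and middle), 0.540 (light and dense) and 0.798 (middle and dense), and the gradient was used as a replicate block in an alternative fit. Other alternatives were the pseudocount (0.1), the TPM filter (none or 10), quantile normalization, TPM rescaled without the 50 most abundant genes, narrower or wider zones, eBayes without trend and leaving out a gradient. Leaving out 1 zone of 1 gradient was added after the data had been seen.

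Named are all 10 members, Hamp2 as a close copy, the 3 genes most like each of Fth1, Slc40a1, Hamp, Aco1, Tfrc and Cp, and, of the other iron genes, up to 5 of the largest called rises and falls with the same sign in both gradients, besides Alas2, Epas1 and Slc11a2. The members and lists were chosen with earlier results of these data known. Of the listed iron genes, Heph was in the table of gradient 1 alone, Cybrd1 was below the filter, and Scara5, Erfe and Flvcr1 were not analysed here. Of the markers, Col1a1, Hbb-bs and Hbb-bt were not analysed here, and 2 further listed genes are not reported here. Transcripts, coordinates and IRE motifs were taken from GENCODE for GRCm38. Python 3.11.15, NumPy 2.4.6, pandas 2.3.3 and Matplotlib 3.10.9 were used.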

Additional observations from a re-analysis of the deposited data

How the results depend on the processing

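The counts of called members between dense and light (6), between middle and light (4) and of called other iron genes (25) stayed within 1.5 times under all alternatives that were run, while the count between dense and middle went from 2 to 4 with the replicate block. Leaving out 1 zone of 1 gradient at a time, which was added after the data had been seen, gave 5 to 6, 4 to 5, 19 to 25 and, between dense and middle, 0 to 4 calls. Leaving out a whole gradient leaves no residual degrees of freedom and gave values without a test. The class difference in log2 change moved beyond its spread only when it was limited to membrane or secreted proteins (−1.40), and ran from −0.85 to 0.66 with a gradient left out, as the class difference in center ran from −1.10 to 1.50. Of 355 values of single genes under other processing, 332 kept their direction and side of the threshold, 16 gained and 4 lost the call, and 3 turned: Fth1 from light to dense with wide zones (0.12), and from middle to dense Hamp without the 50 most abundant genes (0.019) and Cp with quantile normalization (0.14). The 4 lost calls were all of Tfr2 from light to dense. With a zone or gradient left out, signs turned from light to dense for Fth1 (−0.84 to 0.79), Ftl1 (−0.51 to 1.08), Hfe (−1.37 to 0.25) and Epas1 (−0.058 to 0.58), from light to middle for Tfr2 (−0.37 to 0.027) and Hfe (−1.46 to 0.084), and from middle to dense for Hfe (−0.69 to 0.93), Hamp (−0.59 to 0.44) and Cp (−0.63 to 0.25). None of these was called in the reported fit. Calls were lost with 1 zone of 1 gradient left out for Tfr2, Hmox1 and Slc11a2 (light to dense) and for Aco1 and Ireb2 (middle to dense), 12 times in all. The replicate block changed no call of a member in any of the 3 comparisons, nor of another named iron gene from light to dense, besides those given with the results. The cause of these shifts was not tested. The unknown depth limits values near or below 1 TPM, above all those of Tfrc.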
